A study of Mus musculus with 6 samples.

Results

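Immediate early response genes are the AP-1, EGR, NR4A and KLF transcription factors, dual specificity phosphatases, RNA decay regulators and small signalling proteins whose RNA appears quickly after a cell is stimulated or handled. The members were chosen by gene symbol from a list of 32, all 32 of which were among the 13642 genes of the deposited table. Some of them, such as Jund and Btg1, are also known for steady expression or for quiescence, so a member's level need not reflect stimulation. The rule used symbols and no measured value, but the list was drawn up with earlier results of these data known. The cells were long-lived plasma cells of mouse bone marrow, non-dividing cells that secrete antibody, sorted as high for CD138 and lacking B220, IgD, both kinds of T cell receptor, CD11b and Gr-1. The comparison asked which transcripts differ between such cells of old and of young animals. The young group held 3 libraries from female C57BL/6J mice of 2 to 3 months, supplied by the Jackson Laboratory or a facility at UCLA. The old group held 3 libraries from male C57BL/6J mice of 17 to 19 months, supplied by the colony of the National Institute on Aging. All mice were untreated as far as the labels say, and age, sex and supplier cannot be told apart. The labels do not say how many animals went into each library; the spread behind each p-value is that between libraries and can be technical in part.

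An immediate early gene needs no new protein to be transcribed: existing factors such as SRF with its ETS partners, and CREB, are phosphorylated by MAP kinase and calcium signalling and act at the promoter. The products then bind the next set of genes, and several of them end the response. Dual specificity phosphatases remove phosphate from MAP kinases, and the CCCH zinc finger proteins Zfp36, Zfp36l1 and Zfp36l2 bind AU-rich elements and hasten the decay of short-lived RNA, including that of immediate early genes. Enzymatic or mechanical dissociation and sorting of tissue are also known to induce the same genes.

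Promoter windows were printed for genes on which the results below turn. Fos stands for the genes that varied most between libraries of a group, Egr2, Btg1 and Dusp2 for those whose young and old libraries did not overlap, and Btg2 for those with small spread. The windows are the 250 bases before the RefSeq transcription start on GRCm38.p6, written 5′ to 3′ on the strand of the gene. Those printed lie outside exons of the GENCODE M21 annotation. For Egr2, which had several windows, a window without exon bases was taken. Capitals mark matches, on either strand, to TGACGT (the core of the cyclic AMP response element), its full palindrome TGACGTCA, TGANTCA (AP-1), GCGNGGGCG (EGR), TATAAA or the CArG box bound by SRF.
Fos (chr12:85473640-85473889, plus strand): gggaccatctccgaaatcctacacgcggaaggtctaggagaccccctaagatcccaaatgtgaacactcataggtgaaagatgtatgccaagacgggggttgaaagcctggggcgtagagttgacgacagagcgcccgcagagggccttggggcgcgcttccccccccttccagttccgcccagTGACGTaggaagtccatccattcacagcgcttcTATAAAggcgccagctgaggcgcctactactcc
Egr2 (chr10:67537619-67537868, plus strand): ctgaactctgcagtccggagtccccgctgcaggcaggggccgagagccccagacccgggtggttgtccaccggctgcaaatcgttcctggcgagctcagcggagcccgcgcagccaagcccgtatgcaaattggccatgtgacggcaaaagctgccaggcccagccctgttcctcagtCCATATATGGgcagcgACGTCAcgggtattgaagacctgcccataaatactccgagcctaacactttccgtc
Btg1 (chr10:96616751-96617000, plus strand): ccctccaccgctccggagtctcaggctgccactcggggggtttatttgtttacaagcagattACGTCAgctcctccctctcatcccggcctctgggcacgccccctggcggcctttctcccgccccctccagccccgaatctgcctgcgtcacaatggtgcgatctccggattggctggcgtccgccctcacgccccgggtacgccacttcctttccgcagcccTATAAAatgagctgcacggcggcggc
Dusp2 (chr2:127335909-127336158, plus strand): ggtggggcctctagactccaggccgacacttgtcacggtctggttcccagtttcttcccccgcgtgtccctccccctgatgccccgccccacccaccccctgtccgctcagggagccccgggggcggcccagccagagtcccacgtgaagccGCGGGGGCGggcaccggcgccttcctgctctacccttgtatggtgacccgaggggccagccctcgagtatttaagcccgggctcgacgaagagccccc
Btg2 (chr1:134079156-134079405, minus strand): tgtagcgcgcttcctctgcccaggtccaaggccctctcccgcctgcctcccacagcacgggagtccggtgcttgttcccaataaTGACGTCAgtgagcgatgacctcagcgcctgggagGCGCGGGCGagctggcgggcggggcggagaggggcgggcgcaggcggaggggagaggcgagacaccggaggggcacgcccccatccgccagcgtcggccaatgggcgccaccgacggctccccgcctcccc

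Matches were counted in the 25 members that had a window, against all 27025 genes with a window of this length, a gene counting once if any of its windows matched. TGACGT stood in 9 of 25 members and in 7.29% of all genes, and TGACGTCA, which contains it, in 2 members and 1.77%. The EGR letters stood in 10 members and 5.33% of genes, and the CArG box in 3 members, Dusp5, Egr2 and Zfp36, and 1.62%. All 250 bases of the Dusp5, Fosl2 and Zfp36 windows lie in annotated exons. Letters farther than 250 bases before a start were not searched. TATAAA stood in 4 members and 14.3% of genes, and TGANTCA in 1 member, Zfp36l1, and 7.82%. In Fos, TGACGT began 66 bases before the start and TATAAA 33 bases before it. The CArG box of Egr2 began 72 bases before the start of the printed window. A match describes letters in a window and is not evidence of binding.

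Values are FPKM as deposited, fragments scaled to gene length and to the mapped fragments of the library, so levels can be compared between genes. From the steps between low values the libraries held about 22.5 M to 28.1 M fragments, and 1 fragment in a gene of 1 kb was worth 0.0356 to 0.0445 FPKM. Genes above 0 numbered 8934 to 10664 in young and 11310 to 12049 in old libraries. Of 2835 genes with a mean of at least 20 FPKM, 82 were listed at 0 in some library, so a member at 0 is described only as listed at 0. Plasma cell genes such as Jchain, Xbp1, Irf4 and Sdc1 were abundant in every library, while Ly6k, from the same list, was listed at 0 in 4. Of the 10 plasma cell markers, 9 had a negative log2 change, with a median of -0.41 against 0.23 for all genes tested, and limma called 0. Fkbp11, a peptidyl-prolyl isomerase of secretory cells, had the most negative of these changes, at 142, 177 and 109 FPKM in young and 112, 26.9 and 36.0 in old libraries (log2 change -1.53, limma adjusted p = 0.736). Old replicate 3 stood apart, with 7514 FPKM of Jchain against 16937 to 19793 in the other libraries.

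Together the 32 members reached 824, 1957 and 3293 FPKM in young replicates 1 to 3, and 4035, 2724 and 1516 FPKM in old replicates 1 to 3. The young libraries averaged 2025 ± 1236 and the old ones 2758 ± 1259.6 (SD, n = 3 each). Young replicate 1 was the lowest library and old replicate 1 the highest, and the groups overlapped. The log2 ratio of the group means was 0.45, and it was 0.071 without young replicate 1, 0.066 without old replicate 1 and 0.99 without young replicate 3. Those sums were 0.274% to 1.06% of all FPKM in the young and 0.498% to 1.34% in the old libraries. Jun and Fos alone made up 19.7% of the members' sum in young replicate 1 and 38.0% to 48.8% in the other libraries. By mean level Jun ranked 50 and Fos 64 among all 13642 genes. In such bulk samples, more RNA per cell and more cells carrying it cannot be told apart.

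**Figure D1:**
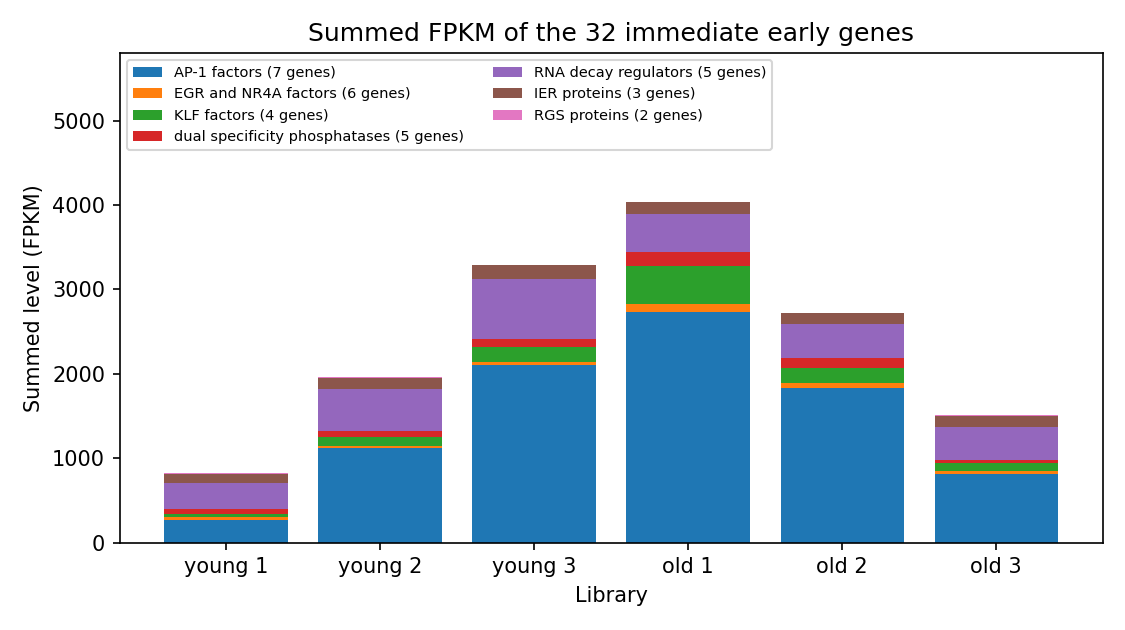
Summed level in FPKM of the 32 members in each library, stacked by role, with bars from 0. The total runs from 824 in young replicate 1 to 4035 in old replicate 1, and AP-1 factors form the largest block except in young replicate 1, where the RNA decay regulators reached 306 against 271.

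Of 7 AP-1 members, Fos, Fosb, Jun, Junb and Jund were abundant, and Fosl2 and Atf3 did not exceed 4.03 FPKM in any library. AP-1 factors are bZIP proteins that bind DNA as pairs. Fos, which must pair with a Jun protein, was at 65.3, 370.2 and 713 FPKM in young replicates 1 to 3 and at 767, 522 and 190.4 in old replicates 1 to 3. Its groups overlapped: young replicate 3 lay beside old replicate 1, and old replicate 3 below young replicate 2. Its log2 change was 0.71 ± 0.79 (SE; limma adjusted p = 0.876). Within the young group the highest library was 10.9-fold above the lowest, against 4.03-fold in the old group.

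Fosb, a close relative of Fos, was at 27.6, 84.8 and 245 FPKM in young and 418, 156 and 42.8 in old libraries, so it too was highest in old replicate 1 and lowest in young replicate 1. Jun, the main partner of Fos, was at 96.7, 373 and 644 FPKM in the young and 1172, 807 and 427 in the old libraries. Its old mean of 802 ± 373 lay above the young mean of 371 ± 274 (SD, n = 3), the groups overlapped because young replicate 3 exceeded old replicate 3, and the log2 change was 1.37 ± 0.62 (SE; limma adjusted p = 0.839). Junb, which often restrains Jun, was at 43.0, 153 and 192 FPKM against 199, 135 and 99.9. Jund, the most constantly expressed Jun protein in many cells, was at 37.9, 133 and 307 FPKM against 171, 211 and 51.1. Junb and Jund overlapped throughout, with log2 changes of 0.35 ± 0.53 and 0.08 ± 0.73 (SE).

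Without young replicate 1 the log2 changes of Fos, Fosb, Junb and Jund were -0.28, -0.030, -0.30 and -0.72, so the sign of each turned. Without old replicate 1 Fosb had -0.027 and Jund -0.16, and Jund was also negative without old replicate 2 (-0.31) and after median-ratio scaling (-0.022). Jun kept a positive log2 change, between 0.59 and 1.95, under all 15 alternatives tried.

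Fosl2 was at 0.00423, 1.78 and 0 FPKM in young and 0.453, 2.14 and 2.62 in old libraries, with overlap. Atf3, a stress-induced bZIP factor, had 0 in all 3 young libraries and stood at 0.246, 4.03 and 0.0172 FPKM in the old ones. Those old levels correspond to about 14, 244 and 1 fragments, so old replicate 2 was by far the highest. Atf3 was not tested because its mean was under 1 FPKM.

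**Figure D2:**
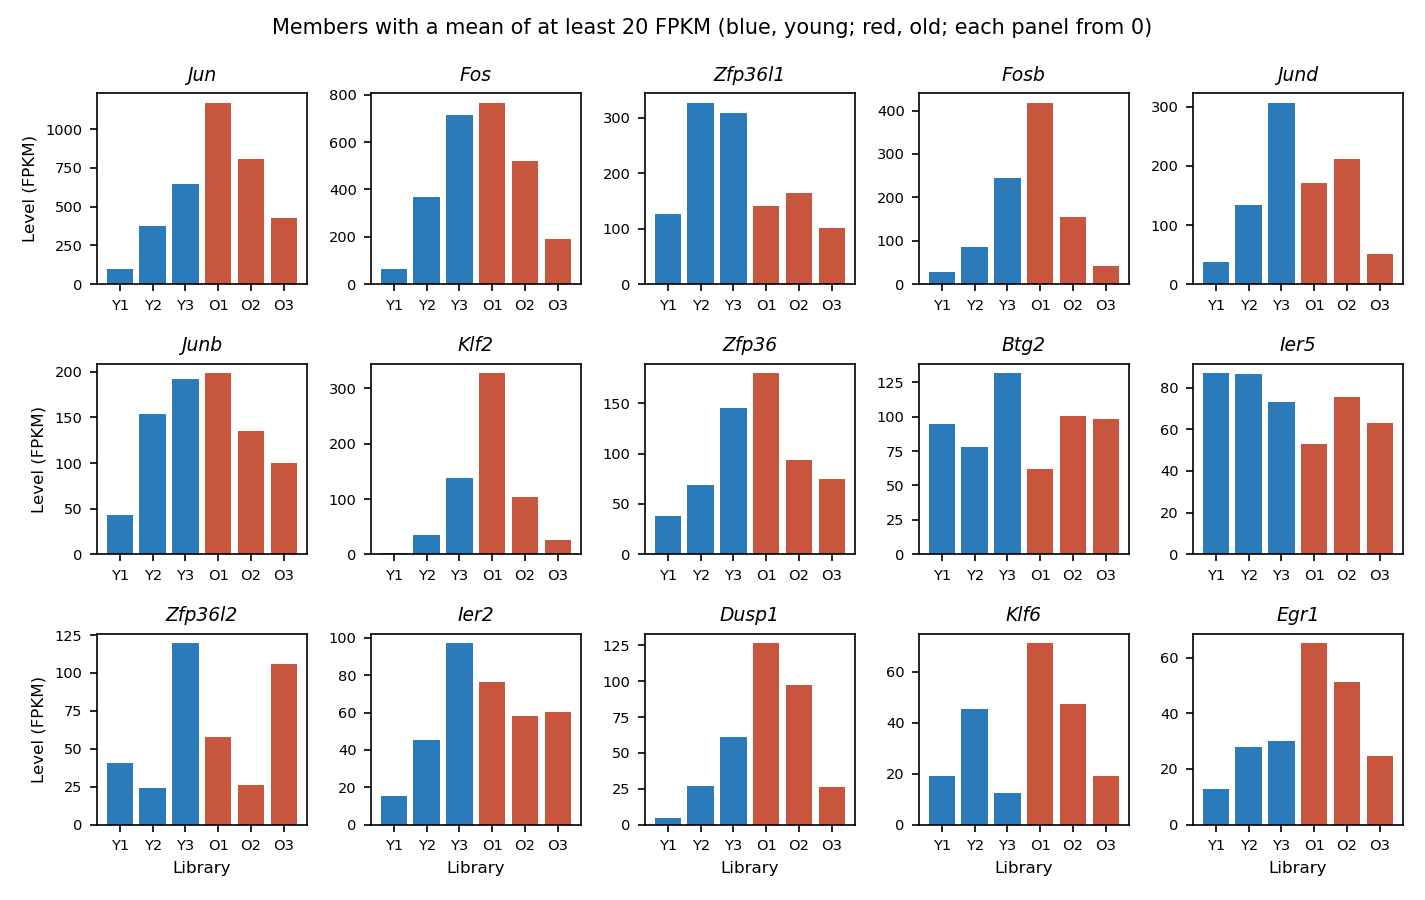
Level in FPKM of the 15 members with a mean of at least 20 FPKM in young (Y1 to Y3, blue) and old (O1 to O3, red) libraries, each panel with bars from 0. Fos, Fosb, Jun, Junb, Egr1, Klf2, Dusp1 and Zfp36 share 1 shape, lowest in young replicate 1 and highest in old replicate 1, whereas Ier5 stays between 52.8 and 87.1.

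The EGR and NR4A factors were low except for Egr1. EGR proteins are zinc finger factors that bind GC-rich sites, and NR4A proteins are nuclear receptors that act without a known hormone; both families are known in lymphocytes as read-outs of antigen receptor signalling. Egr1 was at 12.7, 28.0 and 30.018 FPKM in young and 65.2, 51.1 and 24.7 in old libraries. Old replicates 1 and 2 lay above every young library and old replicate 3 among them, with a log2 change of 0.95 ± 0.52 (SE; limma adjusted p = 0.841).

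Egr2 was at 0, 0.0110 and 0 FPKM in the young and 14.0, 0.239 and 5.99 in the old libraries. The groups did not overlap, and the young values amount to a single fragment in young replicate 2, against about 1289, 23 and 549 fragments in the old libraries. Egr3 was listed at 0 in each young library and was at 18.1, 0.749 and 4.28 FPKM in the old libraries, again with no overlap and again highest in old replicate 1 and lowest in old replicate 2. Log2 changes were 2.34 ± 1.02 for Egr2 and 2.49 ± 0.99 for Egr3 (SE), with limma adjusted p of 0.839 and 0.829. Old levels of Egr3 differed 24.2-fold and those of Egr2 58.9-fold between libraries, and fold changes on this scale depend on the pseudocount because the young values are at or near 0. With any single young library left out, or without old replicate 1 or 3, the unadjusted p of both genes was above 0.05. Of the 14 alternatives that gave a value, 5 for Egr2 and 7 for Egr3 had an unadjusted p under 0.05.

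The NR4A genes were low and scattered. Nr4a1 was at 0.971, 0 and 10.6 FPKM in young and 0.665, 0.0740 and 0 in old libraries. Nr4a2 and Nr4a3 were listed at 0 in young replicates 2 and 3, and in young replicate 1 they were at 8.95 and 7.98 FPKM, the highest value of each gene in any library. Old libraries ran from 1.92 to 3.61 FPKM for Nr4a2 and from 0.0236 to 1.31 for Nr4a3. The library with the least Fos and Egr1 RNA was therefore the one with the most Nr4a2 and Nr4a3 RNA. Log2 changes were -1.23 ± 1.01, 0.79 ± 1.05 and -0.38 ± 1.02 (SE) for Nr4a1, Nr4a2 and Nr4a3, and the last turned to 0.28 with a pseudocount of 0.1.

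Krüppel-like factors are zinc finger proteins with CACCC-type binding sites, and Klf2 and Klf4 are known in B lineage cells for roles in quiescence and in the homing of plasma cells to bone marrow. Klf2 was at 2.85, 35.1 and 139 FPKM in young and 328, 103 and 25.3 in old libraries. It overlapped between groups and had the widest young range of the abundant members, 48.7-fold, against 13.0-fold among old libraries. Klf4 was at 0.0674, 7.33 and 15.4 FPKM in the young and 44.9, 17.9 and 23.4 in the old libraries. No old value fell inside the young range, and old replicate 2 and young replicate 3 were nearest to each other. The log2 change was 2.39 ± 0.95 for Klf4 (SE; limma adjusted p = 0.829) and 1.85 ± 1.21 for Klf2 (adjusted p = 0.851). Without young replicate 1, where it amounted to about 5 fragments, Klf4 had a log2 change of 1.24. Its unadjusted p was above 0.05 without that library and without any 1 of the old libraries.

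Klf6 was at 19.2, 45.5 and 12.3 FPKM against 71.2, 47.3 and 19.2, with overlap. Klf10, induced by TGF-beta, was the KLF member with lower old values, at 12.6, 22.3 and 12.0 FPKM in young and 2.67, 7.02 and 17.5 in old libraries, and its groups overlapped through old replicate 3. Their log2 changes were 0.83 ± 0.61 and -0.97 ± 0.72 (SE).

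**Figure D3:**
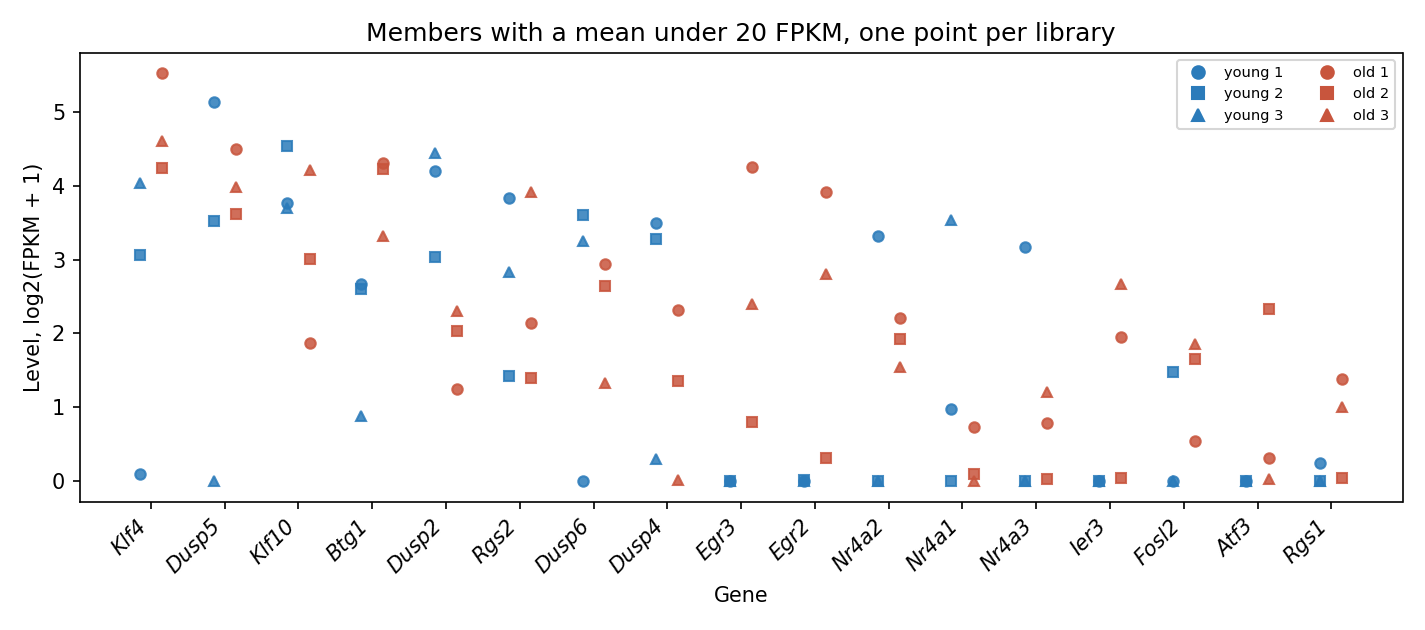
Level as log2(FPKM + 1) of the 17 members with a mean under 20 FPKM, 1 point per library (blue, young; red, old; circle, square and triangle, replicates 1 to 3). Old points lie above all young ones for Klf4, Btg1, Egr3, Egr2, Ier3 and Atf3 and below them for Dusp2. Young points of 11 members of the list include a 0, and old points of 1 member do. Of all genes, 8934 to 10664 were above 0 in young and 11310 to 12049 in old libraries.

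The dual specificity phosphatases split. Dusp1, a nuclear phosphatase of stress kinases p38 and JNK, followed Fos: it was at 4.38, 26.6 and 60.9 FPKM in young and 127, 97.3 and 26.0 in old libraries, a log2 change of 1.73 ± 0.86 (SE; limma adjusted p = 0.839), with old replicate 3 inside the young range. Dusp2, also called PAC-1 and first known from activated lymphocytes, was at 17.3, 7.19 and 20.8 FPKM in the young and 1.38, 3.08 and 3.95 in the old libraries. It was the 1 member whose old libraries were all below the young ones, with means of 15.1 ± 7.06 and 2.80 ± 1.31 FPKM (SD, n = 3). Its log2 change was -2.03 ± 0.75 (SE; limma adjusted p = 0.772, the lowest of the 30 tested members), and between -2.61 and -1.72 over the alternatives, 12 of 15 of which gave an unadjusted p under 0.05.

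Dusp4, a nuclear phosphatase of ERK, was at 10.3, 8.67 and 0.234 FPKM in young and 3.97, 1.56 and 0.0137 in old libraries. Dusp5, likewise a nuclear ERK phosphatase, was at 34.1, 10.5 and 0 against 21.5, 11.2 and 14.8. Dusp6, its cytoplasmic counterpart, was at 0, 11.1 and 8.55 against 6.69, 5.27 and 1.52. Each of the 3 overlapped between groups and had a young library at 0 or far below the other young libraries, young replicate 3 for Dusp4 and Dusp5 and young replicate 1 for Dusp6. Their log2 changes were -1.13 ± 1.10, 1.14 ± 1.12 and 0.02 ± 1.09 (SE).

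Among regulators of RNA decay, the Zfp36 family was abundant and its members differed in the sign of their log2 change. Zfp36, or tristetraprolin, was at 38.4, 69.1 and 146 FPKM in young and 180.1, 93.7 and 75.0 in old libraries, with the shape of Fos. Zfp36l1 was at 127, 327 and 308 FPKM in the young and 141, 165 and 101 in the old libraries. Only young replicate 1 kept its groups from separating, as the other young libraries were above all old ones, and the log2 change was -0.81 ± 0.40 (SE; limma adjusted p = 0.839). Without that library its log2 change was -1.25, with a limma adjusted p of 0.359, the lowest of any member in any alternative; over its alternatives the adjusted p ran from 0.359 to 0.9785. Zfp36l2 was at 40.6, 24.2 and 119.7 against 58.0, 26.1 and 106, and its groups overlapped.

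Btg1 and Btg2 are antiproliferative proteins that bring the CCR4-NOT deadenylase to RNA and are known as quiescence factors in lymphocytes. Btg1 was at 5.36, 5.06 and 0.836 FPKM in young and 18.7, 17.8 and 9.03 in old libraries, without overlap. Old replicate 3 was the nearest to the young range, and the log2 change was 1.91 ± 0.77 (SE; limma adjusted p = 0.838), with an unadjusted p under 0.05 in 11 of 15 alternatives. Btg2, a p53 target, was at 94.8, 78.2 and 132 FPKM against 61.9, 100.2 and 98.0. Its libraries overlapped, with a log2 change of -0.23 ± 0.35 (SE).

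Ier2 and Ier5 are small nuclear proteins, and Ier3 is a short-lived protein linked to survival under stress. Ier2 was at 15.3, 45.5 and 97.2 FPKM in young and 76.3, 58.0 and 60.3 in old libraries, so all old values fell within the young range. Ier5 was at 87.1, 86.5 and 73.0 FPKM against 52.8, 75.6 and 63.2 and was the steadiest member, with log2 change -0.37 ± 0.32 (SE). Ier3 was listed at 0 in young libraries and was at 2.88, 0.0340 and 5.34 FPKM in the old libraries, about 88, 1 and 163 fragments. Its groups did not overlap, yet the value of old replicate 2 rests on a single fragment (limma adjusted p = 0.844).

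Rgs1 and Rgs2 speed the GTPase of G protein alpha subunits, and Rgs1 is known to dampen chemokine receptor signalling in B cells. Rgs1 was at 0.183, 0 and 0 FPKM in young and 1.62, 0.0280 and 1.01 in old libraries, and with a mean under 1 FPKM it was not tested. Rgs2 was at 13.2, 1.68 and 6.14 against 3.41, 1.64 and 14.1, highest in old replicate 3 and young replicate 1, the libraries with the least Fos. Rgs2 overlapped between the groups.

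Limma, run on log2(FPKM + 1) over the 10687 genes with a mean of at least 1 FPKM, called 0 of the 30 tested members at an adjusted p under 0.05, and 0% of all genes tested. At an unadjusted p under 0.05 there were 5 members, or 16.7%, against 5.91% of all genes tested. Higher in old libraries were 4 of them, Egr2, Egr3, Klf4 and Btg1 (13.3% against 4.66%), and 1 was lower, Dusp2 (3.33% against 1.25%). The count of 5 rested on single libraries. Without young replicate 1 it was 2, or 6.90% of members tested against 9.11% of all genes, and without old replicate 1 it was 0 against 4.73%, so that in both the members' share lay below the background. It was 3 without young replicate 2 (10% against 6.68%), 7 without young replicate 3 (24.1% against 6.06%), 4 without old replicate 2 (13.8% against 4.299%) and 5 without old replicate 3 (17.9% against 4.57%).

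Groups did not overlap for 6 of the tested members, or 20%, against 12.2% of all genes tested, with 5 above (16.7% against 8.78%) and 1 below (3.33% against 3.42%). With a library left out, fewer values have to separate and the share rises for all genes. The count came to 10 members without young replicate 1 (34.5% against 28.6% of all genes), 11 without young replicate 3 (37.9% against 22.9%) and 10 without old replicate 3 (35.7% against 19.8%). It was 9 without young replicate 2 (30% against 24.15%), 7 without old replicate 1 (23.3% against 19.3%) and 7 without old replicate 2 (24.1% against 19.3%). After quantile normalization it was 3, or 10% against 11.5%. Over all 32 members it was 7, Atf3 being added, or 21.9% against 11.1% of the 13642 genes, with 6 above (18.8% against 8.36%) and 1 below (3.12% against 2.72%). A filter on the mean admits low members through the group in which they are high, and these counts are given as descriptions.

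A positive log2 change was found in 21 of the 30 tested members, or 70%, against 61.3% of all genes tested. Their median was 0.67, against 0.23 for all genes tested, a distance of 0.45. By mean FPKM 20 of the 32 members were higher and 12 lower in old libraries. Scaling hardly moved the distance to the median of all genes, which was 0.38 as TPM, 0.43 with median-ratio scaling and 0.54 after quantile normalization, which itself moved that median to -0.010. Single libraries did: the members' median was 0.11 without young replicate 1 and 0.24 without old replicate 1, lower than the median of all genes by 0.21 and 0.04, and it was 0.77 without young replicate 3 and 0.76 without old replicate 3.

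**Figure D4:**
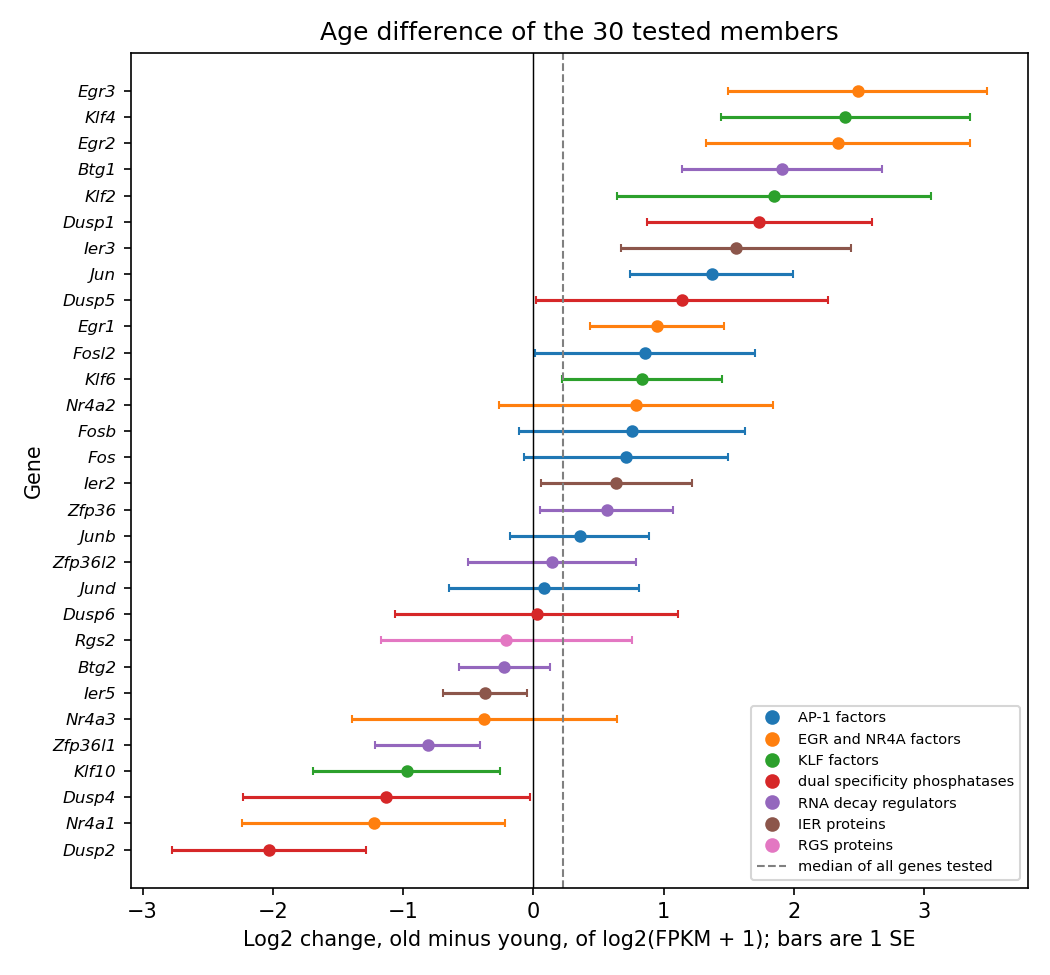
Log2 change, old minus young, of the 30 tested members with bars of 1 SE, coloured by role; the dashed line is the median of all genes tested (0.23). Egr3, Klf4 and Egr2 lie farthest to the right and Dusp2 farthest to the left, and limma called 0 of the 30.

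Libraries of a group differed widely. Among the 15 members with a mean of at least 20 FPKM, the ratio of the highest to the lowest young library exceeded the ratio of the group means, taken in the direction above 1, in 14 (93.3%), as it did in 88.9% of the 2835 genes of that level, with Ier5 the exception. For old libraries the same held in 14 members, with Zfp36l1 the exception, and in 80.6% of those genes. The SD between libraries of a group, on the log2 scale, had a median of 0.93 over these members and 0.56 over those genes, and 13 of the 15 lay above the latter. Klf2 had an SD of 2.26, larger than 96.0% of those genes, Fosb one of 1.59 (91.2%), Dusp1 one of 1.53 (90.5%) and Fos one of 1.45 (89.0%). Ier5, at 0.21, had a smaller SD than all but 4.06% of these genes, and Btg2, at 0.38, than all but 24.6%.

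**Figure D5:**
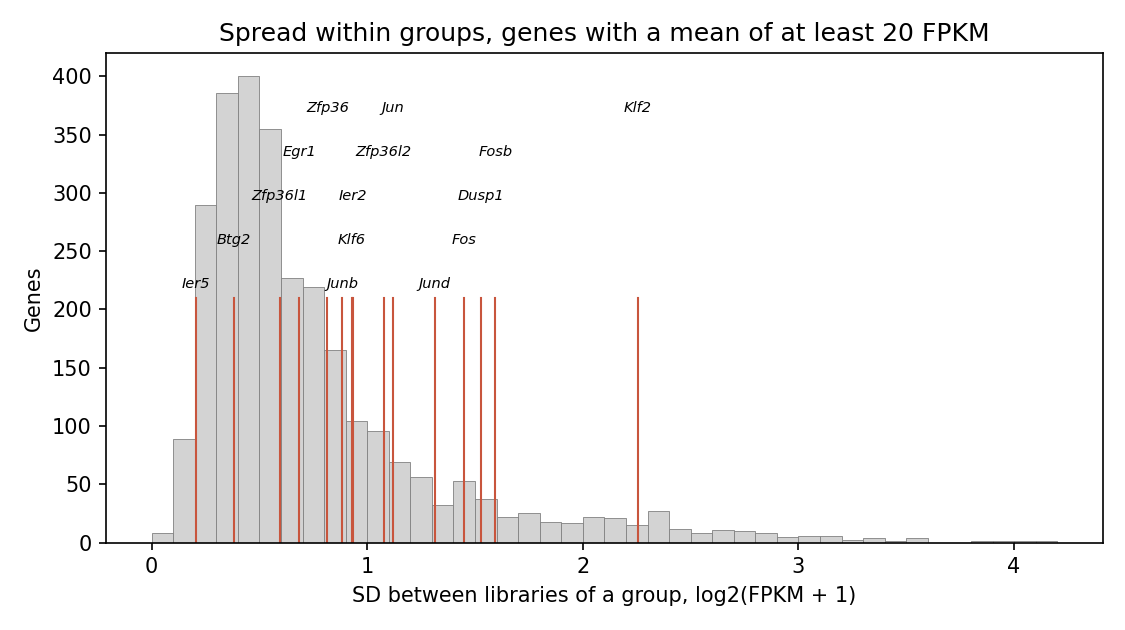
Histogram of the SD between libraries of a group, in log2(FPKM + 1), for the 2835 genes with a mean of at least 20 FPKM, with red lines at the 15 members of that level. Klf2, Fosb, Dusp1 and Fos lie between 1.45 and 2.26 on the right, and Ier5 at 0.21 on the left.

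Much of that spread followed a common order of the libraries, which was noticed in the values and is given without a test. Of the 15 abundant members, 10 were lowest in young replicate 1, which was the lowest library for 14.7% of the 2835 genes of that level, and 9 were highest in old replicate 1, the highest library for 13.3% of those genes. Young replicate 3 above 2 above 1, with old replicate 1 above 2 above 3, was the order of 8 members, namely Fos, Fosb, Jun, Junb, Egr1, Klf2, Dusp1 and Zfp36, and of 3.88% of the 2835 genes. Zfp36l1, Zfp36l2, Btg2 and Ier5 kept to neither part of that order. Replicates of a group have no order of their own, so this describes how these 6 libraries differed.

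Lists of related genes give the surroundings of the members, and limma called 0 genes in each at an adjusted p under 0.05. Of 26 other rapidly induced genes tested, 14 had a positive and 12 a negative log2 change, with a median of 0.07, and their sum was highest in young replicate 3 (1929.5 FPKM) and not in old replicate 1 (1138). Gadd45a, a stress-induced cell cycle inhibitor, was at 5.38, 0.159 and 0.0358 FPKM in young and 19.9, 18.7 and 15.4 in old libraries (limma adjusted p = 0.680). Tnfaip3, which ends NF-kB signalling, went the other way, at 31.2, 25.2 and 66.3 against 13.9, 12.7 and 19.9 (adjusted p = 0.831). The 2 genes did not overlap between groups.

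The 13 heat shock genes, which also respond to handling, had a median log2 change of 0.34, with 10 positive, and their sum was highest in old replicate 3 (1873 FPKM) and young replicate 1 (1609), the libraries where Fos was lowest. The largest parts of that sum were Hsp90ab1, at 478 to 784 FPKM, Hspa8 and Hsp90aa1. Hspa1a was at 0.0399, 0 and 0 FPKM in young and 8.91, 2.88 and 10.4 in old libraries (limma adjusted p = 0.729). Hsph1 went the other way, at 26.1, 24.0 and 24.8 against 13.7, 13.8 and 8.14 (adjusted p = 0.839), also without overlap. For kinases and factors upstream of SRF and CREB, 13 of 23 were positive in log2 change and the median was 0.31. Their summed level was even, between 394 and 483 FPKM in the 6 libraries, but some single genes were not. Srf was at 25.2, 0.636 and 1.48 FPKM in young and 13.7, 4.53 and 8.26 in old libraries. Crem was at 0.204, 2.92 and 7.29 against 10.8, 6.76 and 6.45, while the more abundant Map2k2 stayed between 50.6 and 82.0. Mapk3, the kinase ERK1, was at 3.63, 0.690 and 4.79 against 11.7, 11.0 and 33.0 (adjusted p = 0.746).

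Relatives of the members outside their list were mixed. Of 9 other AP-1 and ATF genes tested, 7 had a positive log2 change (median 0.43), as did 6 of 9 other KLF genes (0.17), 7 of 11 other dual specificity phosphatases (0.29), 5 of 6 other RGS genes (0.99) and 20 of 27 genes of the RNA decay machinery (0.23). Dusp14 was at 7.29, 0.0638 and 0.0719 FPKM in young and 24.6, 13.2 and 20.8 in old libraries (limma adjusted p = 0.729), opposite to Dusp2. Rgs18, known from platelets and myeloid cells, was listed at 0 in young libraries and was at 5.04, 1.90 and 14.5 in the old libraries (adjusted p = 0.736). Tob2, of the RNA decay machinery, was lower without overlap, at 16.2, 37.3 and 28.6 against 7.92, 14.3 and 12.5 (adjusted p = 0.839). Batf was at 129, 2.07 and 133 against 5.15, 6.04 and 17.9, with overlap (adjusted p = 0.848).

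Several members are also well expressed by other marrow cells, and markers of such cells were not equal between libraries. Summed over 12 genes, monocyte and macrophage markers ranged from 91.1 to 364 FPKM in young and from 211 to 675 in old libraries. Of 8 tested, 5 had a positive and 3 a negative log2 change: Lyz2 was at 26.7, 97.1 and 99.1 against 179, 196 and 516, but Ly6c2 at 47.7, 47.8 and 114 against 5.34, 78.7 and 79.6. C1qb was listed at 0 in 5 libraries and Adgre1 in 4, while C1qa reached 15.6 in young replicate 3. Neutrophil markers (12 genes) ranged from 439.9 to 570.0 in young and 269 to 1348 in old libraries, with 9 positive and 3 negative log2 changes. Elane was at 10.2, 0.0475 and 0.0536 against 19.7, 19.2 and 220.1, but S100a9 at 192, 319 and 324 against 60.1, 749 and 40.2. Erythroid markers (8 genes) ranged from 29.9 to 312 and from 47.0 to 981, T and NK cell markers (9 genes) from 13.4 to 42.6 and from 10.5 to 49.4. Of 5 T and NK cell markers tested, 3 had a positive and 2 a negative log2 change, with Cd4 at 23.4, 8.91 and 8.34 against 5.11, 1.99 and 9.44. B cell markers (8 genes) ranged from 44.7 to 61.7 and from 50.7 to 114, and dendritic markers (10 genes) from 63.5 to 325 and from 114 to 213. Eosinophil, basophil and mast cell markers (9 genes) ranged from 1227 to 1384 and from 896 to 1482, mostly Prg2. Prg2 was at 861 to 1353 FPKM in every library, while Epx did not exceed 9.94 and Prg3 26.9, and Mcpt8 ran from 2.23 to 265. Whether Prg2 RNA came from such cells was not tested. Megakaryocyte markers (6 genes) ranged from 0.160 to 13.0 and from 6.07 to 46.3, and stromal and endothelial markers (7 genes) from 7.94 to 19.5 and from 14.997 to 23.8.

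Of the 9 lists of other cells, 6 had their highest sum in old replicate 3 (monocyte, T and NK, erythroid, megakaryocyte, eosinophil with basophil and mast, and stromal), where Fos, Fosb, Klf2 and Dusp1 were the lowest of the old libraries and Fosl2, Ier3 and Rgs2 the highest of all. Neutrophil and B cell sums were highest in old replicate 2, which was highest of all for Atf3 alone among the members. In old replicate 1, highest for Fos, Jun, Klf2, Klf4, Egr2 and Egr3, neutrophil markers were at their lowest, 269 FPKM. Eosinophil, basophil and mast cell markers, mostly Prg2, were also lowest there (896). Dendritic markers there (213) were exceeded only in young replicate 3 (325), and B cell markers (72.0) only in old replicate 2 (114). The other lists were neither highest nor lowest in that library. The part of such cells in the members' values was not tested.

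Exons of 8 members overlap a gene on the opposite strand in GENCODE M21, namely Jun, Junb, Jund, Dusp1, Dusp5, Zfp36, Zfp36l1 and Zfp36l2. The largest overlap is 1672 bases, between Zfp36l1 and Gm26669, and the overlapped gene is itself in the table only for Junb (Prdx2) and Dusp1 (Ergic1). Whether reads were counted by strand was not given in the sources used here, so values of these members may include reads of the partner.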

How the data were processed

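RNA of sorted plasma cells (5 ng per library, stranded total-RNA kit, paired ends) was sequenced in 6 libraries, per the labels' protocols. The authors deposited 1 table of FPKM values with a column per library. Per the submitters' processing notes bcl2fastq 2.17, STAR and DESeq2 and the builds GRCm38 and mm10 were used, with no roles given. The counter, the gene models and any use of strand are not given in the sources used here. Members, lists and tests were chosen with earlier results of these data known, and gene lists other than the members were written from general knowledge.

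Old and young libraries were compared on log2(FPKM + 1) in limma (version 3.58.1, under R 4.3.3) with trended moderation, two-sided, over the 10687 genes with a mean of at least 1 FPKM, with Benjamini-Hochberg adjustment over all of them. The fit was tested on simulated data. A change on this scale is old minus young and understates that of low genes. All members were named. In each other list the tested genes of smallest p were eligible to be named, up to 4. Markers named singly, and genes named to describe the sum of a list, were chosen after their values were seen. Depth was taken from the steps of low values with merged GENCODE M21 exon lengths, to which 13627 genes matched without version numbers; amplified fragments are not independent molecules, so such numbers cover counting error only. Alternatives were a pseudocount of 0.1, 2 other filters, 3 scalings, robust moderation, array weights, a replicate block and leaving out each library. Tables and figures were made with Python 3.11.15, numpy 2.4.6, pandas 2.3.3 and matplotlib 3.10.9.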

Additional observations from a re-analysis of the deposited data

How the results depend on the processing

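Limma called 0 members under each of the 15 alternatives, with 0 to 7 members at an unadjusted p under 0.05. Over all genes it called 1 after quantile normalization, with robust moderation or with array weights, and 0 to 7 without single libraries. The count of 5 members at an unadjusted p under 0.05 was 3 with no filter, 3 with a minimum mean of 5 FPKM and 3 after quantile normalization, and 0 to 7 without single libraries. The 6 members whose groups did not overlap were 3 with a minimum mean of 5 FPKM (13.6% against 11.0%) and 3 after quantile normalization (10% against 11.5%). Without single libraries they were 7 to 11, or 23.3% to 37.9%, against 19.3% to 28.6% of all genes. The members' median of 0.67 ranged from 0.11 to 0.77 without single libraries, and the log2 ratio of the old to the young mean of summed FPKM, 0.45, from 0.066 to 0.99. Of the 30 tested members, 20 kept their sign in every alternative that gave a value and 10 did not. Nr4a3 went to 0.28 with a pseudocount of 0.1, Jund to -0.022 and Dusp6 to -0.065 with median-ratio scaling, and Dusp6 to -0.46 after quantile normalization. Without single libraries the log2 change ranged from -0.28 to 1.44 for Fos, -0.030 to 1.60 for Fosb, -0.30 to 0.76 for Junb, -0.72 to 0.78 for Jund, -0.30 to 2.27 for Dusp5, -1.12 to 0.68 for Dusp6, -0.35 to 0.77 for Zfp36l2, -0.048 to 1.25 for Ier2 and -0.92 to 0.36 for Rgs2. The cause was not tested. With the replicate block 5 members had an unadjusted p under 0.05 (16.7% against 5.34% of all genes) and 0 were called. Deviations of same-numbered libraries correlated at -0.0344, 0.0203 and -0.00412, and those of differently numbered ones between -0.0425 and 0.0495. They gave no sign that the numbers pair the samples, but cannot exclude that same-numbered libraries were handled together. Values of a few fragments, such as Ier3 in old replicate 2, are limited by depth.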
